A study of Homo sapiens with 20 samples.

Results

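The sites of the cohesin subunit STAG2 were compared with those of the core ring subunit SMC1A in cells with STAG2 intact. The members were the 4 peak lists of chromatin immunoprecipitation sequencing (ChIP-seq) labelled WT and raised with antibodies against STAG2 or SMC1A, of 16 peak lists in all. Each STAG2 list was set against the SMC1A list of the same set: the libraries whose titles carry no number are replicate 1, and those whose titles end in 2 are replicate 2. A peak had its partner when a peak of the other antibody overlapped it by at least 1 bp on chromosomes 1 to 22 and X. On these chromosomes the STAG2 lists held 79048 peaks in replicate 1 and 118984 in replicate 2, and the SMC1A lists held 82239 and 148383.

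All libraries came from M14, an established human melanoma cell line, so 1 line stood for melanoma. The labels of replicate 1 say that its cells, WT included, carried a doxycycline-inducible short hairpin RNA (shRNA) against STAG2. Its WT cells were grown without doxycycline for the 5 days over which the STAG2-KD cells received it. The labels of replicate 2 give the genotype as wild type or STAG2-KD and name no construct, drug or time. WT lists for CTCF and STAG1 and the STAG2-KD lists for STAG2 and SMC1A were used only to describe the sites.

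Cohesin is a ring-shaped complex that holds chromatin loops and sister chromatids together. SMC1A forms the ring together with SMC3 and RAD21, and each ring binds 1 STAG protein, either STAG2 or its paralog STAG1. CTCF is a DNA-binding protein with an oriented motif at which cohesin often halts, so that cohesin sites gather at CTCF sites, while cohesin also occurs at active promoters and enhancers.

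The 2 replicates were made differently, and their lists are not alike. Replicate 1 held peaks down to a −log10 q-value of 2.01 (STAG2) and 2.00 (SMC1A), and its narrowest peak spanned 120 bp. Replicate 2 held peaks down to a −log10 p-value of 2.01 (STAG2) and 2.02 (SMC1A), which let in q-values up to 0.410 and 0.310, and its narrowest peak spanned 150 bp. Fragments were selected at 200 to 600 bp in replicate 1 and at 200 to 500 bp in replicate 2. The read depth recovered from the steps in the lists (in units of 1000000 reads), after scaling in peak calling, was 38.6 for STAG2 and 40.2 for SMC1A in replicate 1, and 63.0 and 48.1 in replicate 2. Before scaling it was 44.7 for STAG2 and 40.2 for SMC1A in replicate 1, and 64.9 and 48.1 in replicate 2. The values below are therefore given per replicate, with their mean and SD (n = 2). Any p-value measures only the spread between these lists, which may be technical, and shares of peaks have no test.

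Sequences at strong sites of each class are shown so that the CTCF core, or its absence, can be read at the summit. Each line gives 61 bases of the GRCh37 (hg19) plus strand centred on the summit, with the nearest protein-coding gene as name, and capitals mark a match to the CTCF core CCNNNAGNNGGC on either strand. These 3 sites held STAG2 and SMC1A in both replicates and were among the 5 strongest of their class. They lie at chr19:34269102-34269162, chr5:174961236-174961296 and chr17:79917689-79917749.
CHST8: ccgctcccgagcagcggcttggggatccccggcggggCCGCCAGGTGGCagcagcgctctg
SFXN1: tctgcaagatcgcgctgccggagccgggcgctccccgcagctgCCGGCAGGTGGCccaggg
NOTUM: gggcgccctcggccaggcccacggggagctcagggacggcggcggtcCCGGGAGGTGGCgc

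These 3 sites held STAG2 in both replicates and SMC1A in neither, and were among the 5 strongest of that class. They lie at chr9:9998654-9998714, chr15:58261720-58261780 and chr2:89607202-89607262.
PTPRD: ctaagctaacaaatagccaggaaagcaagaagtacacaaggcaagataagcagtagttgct
ALDH1A2: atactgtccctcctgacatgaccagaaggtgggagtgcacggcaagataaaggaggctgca
RPIA: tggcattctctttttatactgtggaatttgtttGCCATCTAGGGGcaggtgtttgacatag

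These 3 sites held SMC1A in both replicates and STAG2 in neither. They lie at chr16:90098804-90098864, chr1:37389976-37390036 and chr1:236260488-236260548.
GAS8: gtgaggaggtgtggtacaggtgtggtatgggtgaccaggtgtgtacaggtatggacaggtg
GRIK3: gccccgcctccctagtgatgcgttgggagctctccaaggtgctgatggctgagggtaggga
NID1: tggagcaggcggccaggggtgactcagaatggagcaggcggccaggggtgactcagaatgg

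Of the 5 strongest sites of each class, from which those shown were picked, the CTCF core stood beside the summit at 4 of 5 shared sites, 1 of 5 STAG2 sites and 1 of 5 SMC1A sites. The NID1 window repeated itself every 29 bases. Over all sites, the core was found within 100 bp of the summit at 27.8% and 19.0% of STAG2 peaks with SMC1A, at 9.36% and 5.85% of STAG2 peaks without it and at 9.27% and 5.10% of SMC1A peaks without STAG2 (replicate 1 and replicate 2). Windows of the same length across the genome held it in 1.46%. A match is a description of the letters and not a binding site.

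The first question was how far the sites of the 2 subunits coincide. STAG2 and SMC1A shared most of their sites. Without a further threshold, the remainder was of similar size on both sides in replicate 1 and larger on the SMC1A side in replicate 2. In replicate 1, 60474 STAG2 peaks had an SMC1A peak, which is 76.5% of the list. In replicate 2 the number was 96379, or 81.0%. The mean was 78.8% ± 3.18 (SD, n = 2). Conversely, 20576 SMC1A peaks, 25.0% of the list, had no STAG2 peak in replicate 1, and 48911, 33.0% of the list, had none in replicate 2, a mean of 29.0% ± 5.61 (SD, n = 2). STAG2 peaks without SMC1A numbered 18574 and 22605. Wilson intervals (95%), which cover counting error only, ran from 76.2% to 76.8% and from 80.8% to 81.2% for STAG2 with SMC1A, far narrower than the gap between the replicates.

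STAG2 lists were shorter than SMC1A lists in both replicates, with a log2 ratio of peak numbers of −0.06 in replicate 1 and −0.32 in replicate 2, and a mean of −0.19 ± 0.18 (SD, n = 2). A two-sided exact permutation test of the log2 peak numbers, 2 lists against 2, gave p = 0.667, where 0.333 is the smallest value it allows. Before scaling, the longer SMC1A list came from fewer reads than the STAG2 list in both replicates, and at the scaled depth only in replicate 2. With only peaks of −log10 q-value at least 5, the ratio turned to 0.17 in favour of STAG2 in each replicate, and the share of SMC1A peaks without STAG2 was 17.0% and 13.4%. At that threshold 73.5% and 77.2% of STAG2 peaks had SMC1A, so the remainder was larger on the STAG2 side in both replicates. With equal numbers of peaks, 75.5% and 81.3% of STAG2 peaks had SMC1A, and 23.3% and 18.4% of SMC1A peaks lacked STAG2. Which side had the larger remainder thus depended on the threshold.

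The partner was missing mostly among weak peaks. Strength is given as the percentile of a peak's −log10 p-value within its own list, with 100 for the strongest. STAG2 peaks with SMC1A had a median percentile of 60.8 in replicate 1 and 58.9 in replicate 2, and those without had 23.0 and 19.0, a difference of 38.9 ± 1.54 (SD, n = 2). For SMC1A the medians were 62.3 and 66.2 with STAG2 and 20.5 and 23.9 without, a difference of 42.1 ± 0.42 (SD, n = 2). The order was the same in all 4 lists.

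Split into 10 bins by strength (deciles), the share of STAG2 peaks with SMC1A rose from 46.2% in the weakest decile to 99.96% in the strongest in replicate 1, and from 48.0% to 100% in replicate 2. SMC1A peaks with STAG2 rose from 35.2% to 99.99% and from 27.5% to 99.99%. The 3 deciles of greatest strength held only 167 STAG2 peaks without SMC1A in replicate 1 and 95 in replicate 2. Nearly every strong site of either subunit thus had a peak of the other, and in the weakest deciles STAG2 peaks had SMC1A more often than the reverse.

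**Figure D1:**
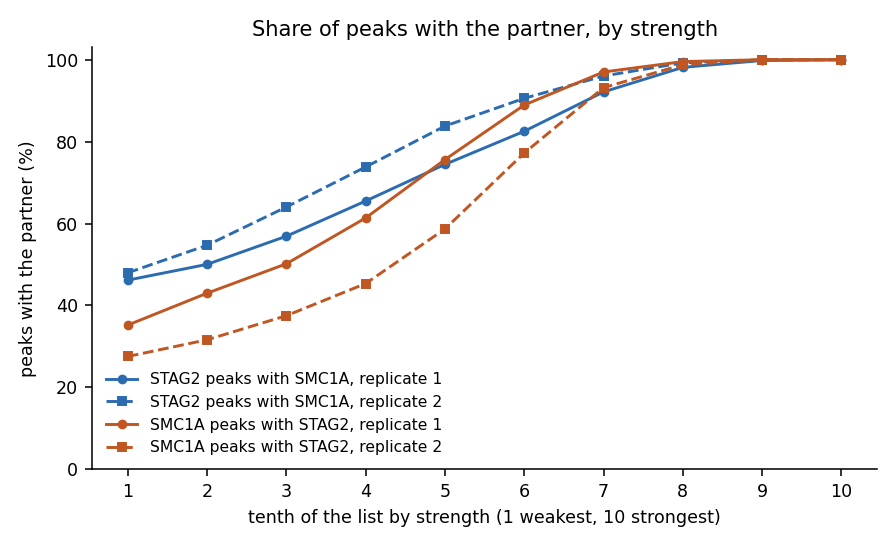
Share of peaks with the partner (%, vertical axis) in each decile of strength (horizontal axis, 10 strongest) for STAG2 (blue) and SMC1A (orange), with replicate 1 as circles and solid lines and replicate 2 as squares and dashed lines. All 4 lines rise from between 27.5% and 48.0% to at least 99.96%.

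Peaks without a partner were also narrower. The median width of STAG2 peaks was 465 and 666 bp with SMC1A and 205 and 260 bp without, and that of SMC1A peaks was 426 and 652 bp with STAG2 and 168 and 204 bp without. Fold enrichment over background at the summit had medians of 11.5 and 5.83 in STAG2 peaks with SMC1A against 4.94 and 3.03 without. For SMC1A the medians were 8.90 and 4.93 with STAG2 against 4.56 and 2.91 without. A narrow peak has less chance to overlap another, and what width contributes to the missing partner was not tested.

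The distance to the nearest partner differed between the classes. STAG2 peaks without SMC1A lay a median of 11.0 and 6.85 kb from the nearest SMC1A peak, and 17.6% and 21.2% had one within 1 kb. SMC1A peaks without STAG2 lay closer, a median of 1.35 and 1.22 kb from the nearest STAG2 peak, with 45.8% and 46.1% within 1 kb. Within 200 bp the shares were 7.82% and 10.0% for STAG2 and 19.4% and 16.5% for SMC1A. SMC1A peaks without STAG2 thus had the partner nearby more often than STAG2 peaks without SMC1A, in both replicates. No expected distance was computed, and what the local density of peaks contributes was not tested.

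Many sites that lacked the partner in replicate 1 had it in the longer lists of replicate 2. Of the STAG2 peaks without SMC1A in replicate 1, 96.9% overlapped a STAG2 peak of replicate 2 and 71.7% an SMC1A peak of replicate 2. Of the SMC1A peaks without STAG2 in replicate 1, 94.9% had an SMC1A peak in replicate 2 and 66.4% a STAG2 peak there. Over the whole lists of replicate 1, 98.1% of STAG2 peaks had a STAG2 peak in replicate 2 and 92.0% an SMC1A peak. For all SMC1A peaks of replicate 1 the shares were 97.4% with SMC1A and 90.4% with STAG2. The shares with the same antibody were thus near those of the whole lists, and the shares with the partner were below them. In the other direction the shares were low. Of the STAG2 peaks without SMC1A in replicate 2, 19.4% overlapped a STAG2 peak of replicate 1 and 1.12% an SMC1A peak there. Of the SMC1A peaks without STAG2 in replicate 2, 7.77% had an SMC1A peak in replicate 1 and 0.21% a STAG2 peak there. Over the whole lists of replicate 2 the shares were 59.6% and 53.6% for STAG2 peaks and 44.8% and 45.1% for SMC1A peaks. Nearly all peaks of replicate 1 overlapped a peak of the same antibody in replicate 2. A site chosen for lacking the partner in replicate 2 could therefore hardly have it in replicate 1, and the low partner shares follow from that choice.

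Sites found in both replicates gave a stricter count. Of 77535 STAG2 sites present in both, 59384 had SMC1A in both, 4190 had it in neither and 13961 had it in 1. Of 80107 SMC1A sites present in both, 60516 had STAG2 in both, 3709 in neither and 15882 in 1. The sites without a partner in either replicate were fewer than those that differed between replicates, for both subunits.

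STAG2 peaks without SMC1A lay less often in promoters in both replicates, while the direction for SMC1A peaks differed between the replicates. Each summit was placed in a promoter if a transcript start of the annotation lay no more than 1 kb away, and otherwise in an exon, an intron or intergenic sequence. STAG2 peaks without SMC1A were poorer in promoters than those with it, 17.5% and 11.4% against 28.0% and 24.2%, a difference of 11.7 ± 1.58 percentage points (SD, n = 2). They lay instead in introns, 49.9% and 52.6% against 41.1% and 45.2%, and between genes, 28.8% and 32.4% against 26.4% and 26.4%. Promoters make up 7.52% of the bases, introns 52.5% and intergenic sequence 36.7%.

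SMC1A peaks without STAG2 were in promoters more often than those with it in replicate 1, 41.1% against 27.9%, and less often in replicate 2, 20.6% against 23.7%. The mean difference, with minus without, was −5.04 ± 11.5 percentage points (SD, n = 2), so its sign was not settled. When the lists were trimmed to the same number of strongest peaks, the difference was −13.6 in replicate 1 and −5.24 in replicate 2. Of all promoter peaks of SMC1A, 32.9% and 29.9% had no STAG2, whereas of all promoter peaks of STAG2, 16.1% and 9.96% had no SMC1A. Over all places, 25.0% and 33.0% of SMC1A peaks had no STAG2, and 23.5% and 19.0% of STAG2 peaks had no SMC1A. The order at promoters was thus that of the whole lists. For SMC1A the promoter share was above that of the whole list in replicate 1 and below it in replicate 2.

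**Figure D2:**
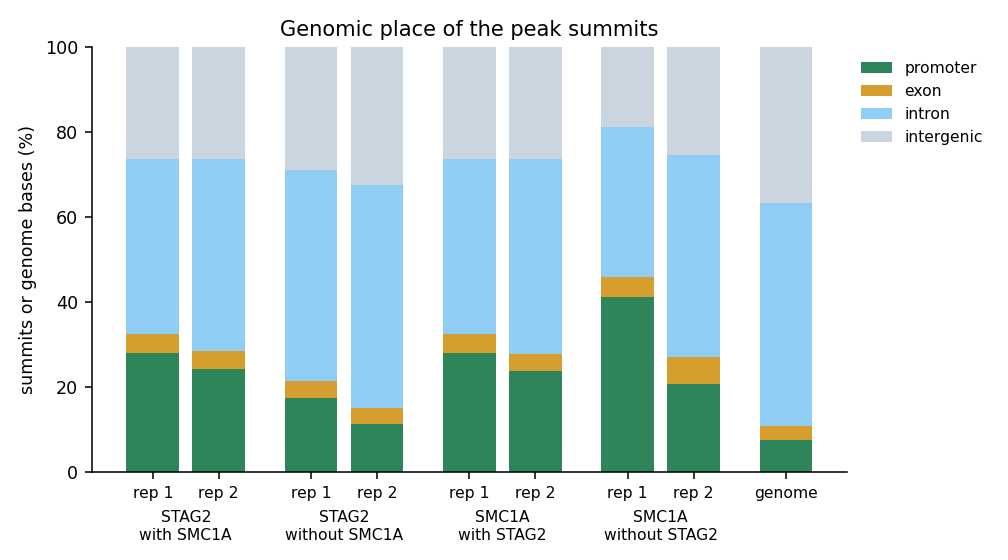
Stacked bars give the share of summits (%) in promoters, exons, introns and intergenic sequence for STAG2 and SMC1A peaks with and without the partner in replicates 1 and 2, with the share of genome bases at the right. STAG2 peaks without SMC1A have the smallest promoter share, 17.5% and 11.4%, and SMC1A peaks without STAG2 in replicate 1 have the largest, 41.1%.

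Distance to a start and base composition went with the promoter shares for STAG2 in both replicates and for SMC1A in replicate 1 only. STAG2 peaks without SMC1A lay a median of 9.55 and 11.9 kb from the nearest transcript start, and SMC1A peaks without STAG2 lay 1.94 and 5.37 kb from one. Shared STAG2 sites lay 5.17 and 6.17 kb away, and SMC1A peaks with STAG2 lay 5.2 and 6.4 kb away. In replicate 2, SMC1A peaks without STAG2 were thus closer to a start although fewer of them were in promoters. The median GC content of the 201 bp around the summit was 44.8% and 43.8% in STAG2 peaks without SMC1A, 49.8% and 47.8% in STAG2 peaks with it, and 52.7% and 47.3% in SMC1A peaks without STAG2. In SMC1A peaks with STAG2 it was 49.8% and 47.3%, so the GC content of SMC1A peaks did not differ in replicate 2.

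Chromosomes differed in the share of peaks without the partner. On chromosome X, 30.2% and 22.4% of STAG2 peaks had no SMC1A, and on chromosome 4 the shares were 29.2% and 23.6%. On chromosome 17, which is dense in genes, they were 15.1% and 13.0%. SMC1A without STAG2 ran the other way, with 14.3% and 24.6% on X and 17.2% and 24.4% on chromosome 4 against 32.5% and 38.7% on chromosome 17.

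CTCF and STAG1 peaks of the same set described the sites further. CTCF peaks overlapped 79.7% and 73.1% of STAG2 peaks with SMC1A and 49.7% and 49.8% of those without, a difference of 26.6 ± 4.73 percentage points (SD, n = 2). They overlapped 78.5% and 71.5% of SMC1A peaks with STAG2 and 26.3% and 20.1% of those without, a difference of 51.8 ± 0.62. CTCF was thus more frequent at STAG2 peaks without SMC1A than at SMC1A peaks without STAG2, in both replicates.

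At matched strength the 2 subunits parted in their overlap with CTCF peaks, but not in the same way in the CTCF core letters. Within deciles, the CTCF share of STAG2 peaks with SMC1A differed from that of peaks without it by 2.07 percentage points in replicate 1 and by −4.35 in replicate 2, a mean of −1.14 ± 4.54 (SD, n = 2), and it was higher with SMC1A in 3 of 8 deciles and in 2 of 8. In decile 5 of replicate 2, 60.2% of STAG2 peaks with SMC1A and 74.5% of those without had CTCF. For SMC1A the difference remained at 22.8 and 25.0 points, a mean of 23.9 ± 1.55 (SD, n = 2), and was above 0 in 8 of 8 deciles in both replicates. The CTCF core letters gave the other order. Within deciles, the core was more frequent at STAG2 peaks with SMC1A by 6.53 and 2.58 points, in 8 of 8 deciles of each replicate. At SMC1A peaks it was more frequent with STAG2 by only 1.42 and 0.47 points, in 5 of 8 and 6 of 8 deciles. Averages over deciles were weighted by the number of peaks on both sides, and deciles with fewer than 20 peaks on a side were left out. The split by decile was a choice made once the values were known. Matched strength here means the same decile, within which strength can still differ.

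The promoter difference of STAG2 grew at matched strength. Within deciles, the promoter share was higher with SMC1A by 23.3 and 17.1 percentage points, a mean of 20.2 ± 4.40 (SD, n = 2), and in 8 of 8 deciles of each replicate. In decile 1 of replicate 1, 50.0% of STAG2 peaks with SMC1A were in promoters and 23.2% of those without. For SMC1A peaks the within-decile difference was −8.42 in replicate 1 and −0.57 in replicate 2.

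**Figure D3:**
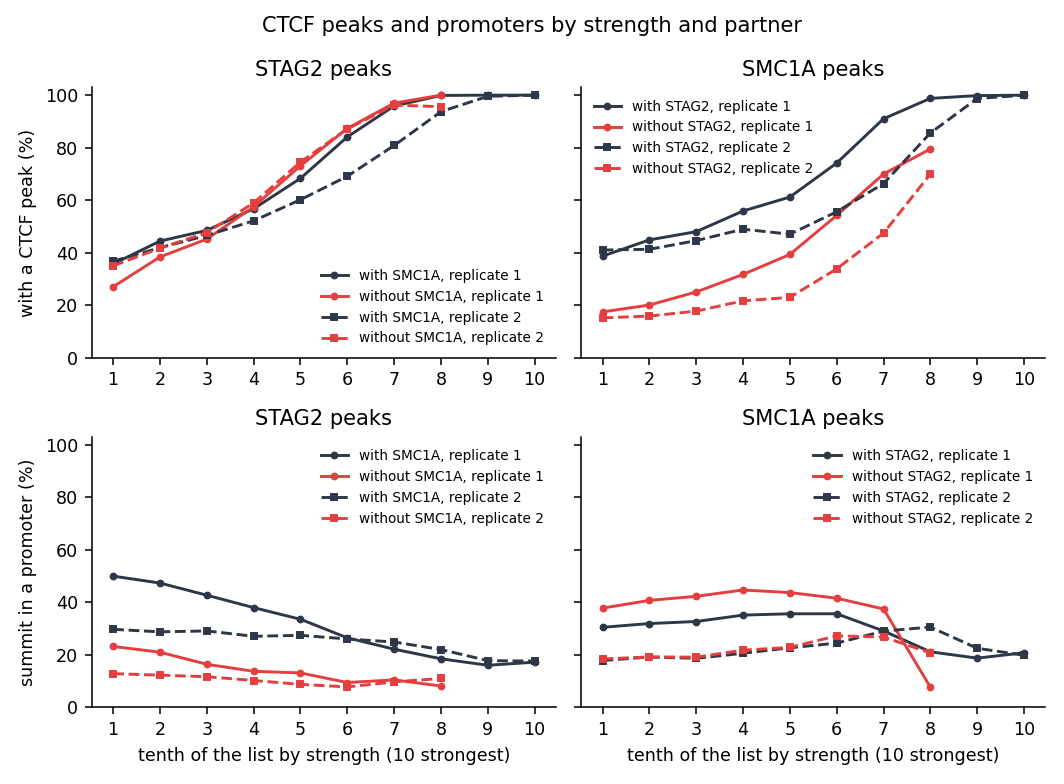
Share of STAG2 peaks (left) and SMC1A peaks (right) with a CTCF peak (top, %) or with the summit in a promoter (bottom, %) by decile of strength, for peaks with (dark) and without (red) the partner in replicate 1 (circles, solid) and replicate 2 (squares, dashed); deciles with fewer than 20 peaks are not drawn. The CTCF curves lie close together or cross for STAG2 and stay apart for SMC1A, and the promoter curves stay apart for STAG2.

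Within a set, STAG1, the alternative to STAG2, was rarely the partner of SMC1A where STAG2 was missing. STAG1 peaks overlapped 80.6% and 79.8% of STAG2 peaks with SMC1A and 41.2% and 33.7% of those without. Only 11.2% and 11.6% of SMC1A peaks without STAG2 had a STAG1 peak. Of all SMC1A sites, 59.6% and 52.3% held STAG1 and STAG2, 15.4% and 14.7% STAG2 alone, 2.80% and 3.82% STAG1 alone and 22.2% and 29.1% neither.

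CTCF divided the SMC1A sites. Where a CTCF peak was present, 82.0% and 80.0% of SMC1A sites held STAG1 and STAG2 and 7.56% and 8.75% held neither. Where CTCF was absent, 17.1% and 19.1% held both and 50.0% and 53.6% held neither. STAG2 alone was found at 29.5% and 23.0% of SMC1A sites without CTCF and at 7.95% and 7.81% of those with it, whereas STAG1 alone stayed between 2.48% and 4.34% in both kinds.

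**Figure D4:**
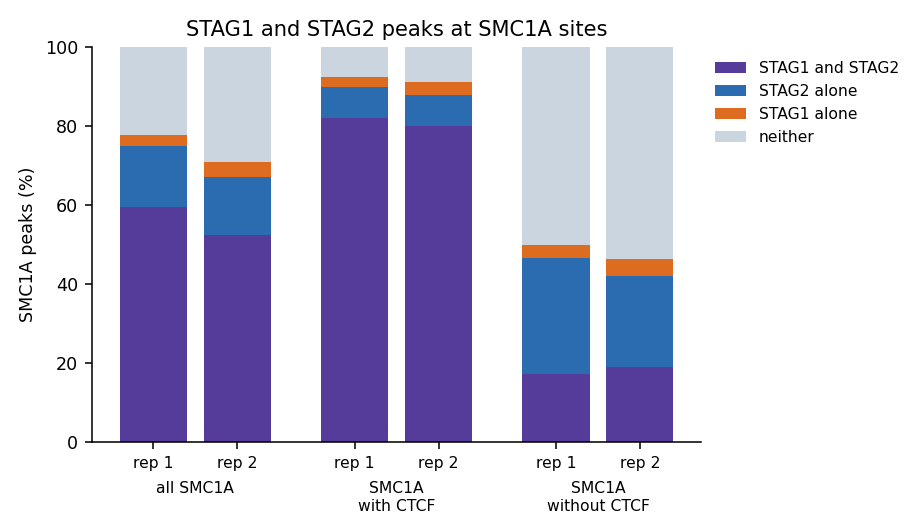
Stacked bars give the share of SMC1A peaks (%) that overlap STAG1 and STAG2 peaks, STAG2 alone, STAG1 alone or neither, over all SMC1A peaks and over those with and without a CTCF peak, in replicates 1 and 2. With CTCF, STAG1 and STAG2 together take 82.0% and 80.0%, and without CTCF neither takes 50.0% and 53.6%.

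Without its partner, SMC1A mostly had no STAG1 or CTCF peak of the same set. Of SMC1A peaks without STAG2, 69.0% and 73.9% overlapped neither a STAG1 nor a CTCF peak. For STAG2 peaks without SMC1A the shares were 41.0% and 44.0%, and 31.8% and 27.5% overlapped both a STAG1 and a CTCF peak. These counts move with strength, since peaks without a partner were weak, and part of the STAG1 difference remained at matched strength. With minus without STAG2, the STAG1 share of SMC1A peaks differed by 68.3 and 66.5 percentage points overall and by 39.3 and 38.0 within deciles. With minus without SMC1A, that of STAG2 peaks differed by 39.4 and 46.1 overall and by 7.98 and 15.0 within deciles. The lists of the other replicate changed the picture for SMC1A sites present in both replicates. Of the 3709 without STAG2 in either, 26.6% had STAG1 and 34.2% had CTCF in at least 1 replicate. Of the 15882 with STAG2 in only 1 replicate, the shares were 77.5% and 69.4%.

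The summits of the 2 subunits were placed differently around the CTCF motif. Among shared peaks with a CTCF peak and a core match within 100 bp, the STAG2 summit lay a median of 17.5 bp downstream of the motif centre, read along the motif strand, in replicate 1 (n = 16255) and 10.5 bp in replicate 2 (n = 17722). It was downstream in 77.2% and 58.6%. The SMC1A summit lay at −0.5 and 1.5 bp and was downstream in 48.6% and 51.2%. The summits of CTCF itself lay at 1.5 and −2.5 bp.

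Paired site by site, the offset was smaller but had the same direction. STAG2 and SMC1A peaks that overlapped each other and no further peak of either list had summits a median of 29 and 61 bp apart (53826 and 80029 pairs), with 72.2% and 43.6% within 50 bp. Of these, 15409 and 16012 pairs had a motif and a CTCF peak, and there the STAG2 summit lay a median of 14 and 6 bp downstream of the SMC1A summit. It was downstream in 68.6% and 55.0% of the pairs and upstream in 30.0% and 44.0%. Summits were less sharply placed in replicate 2, where the peaks were wider.

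**Figure D5:**
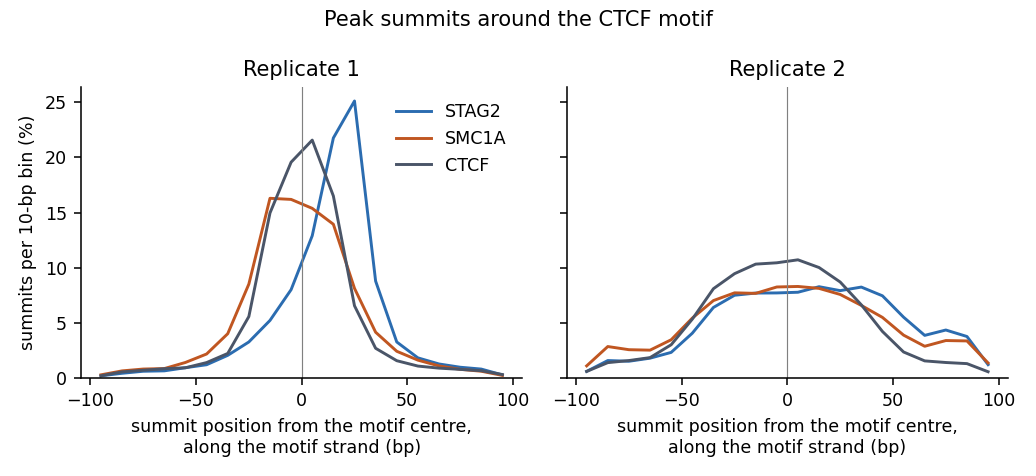
Share of summits (% per 10-bp bin) by position from the centre of the CTCF core match, along the motif strand (bp, positive downstream), for STAG2 and SMC1A peaks that overlap each other and a CTCF peak and for CTCF peaks, in replicate 1 (left) and replicate 2 (right). In replicate 1 the STAG2 curve is shifted downstream (median 17.5 bp) while SMC1A (−0.5 bp) and CTCF (1.5 bp) are near the centre; in replicate 2 the curves are broader.

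Of the other motifs, ETS and E-box letters were more frequent at STAG2 peaks with SMC1A in both replicates. The AP-1 letters TGANTCA were found within 100 bp of 11.6% and 11.2% of STAG2 summits without SMC1A and of 7.69% and 9.86% with it, against 6.30% of genome windows. At matched strength the difference, with minus without, was −1.45 and 0.64 percentage points, so the direction was not kept. The ETS letters CCGGAAG were found at 2.63% and 2.21% of STAG2 summits with SMC1A and at 1.62% and 0.85% without, against 0.471% of genome windows. At matched strength the ETS share was higher with SMC1A by 2.21 and 1.60 percentage points and in 8 of 8 deciles of each replicate. The E-box letters TCACGTG were found at 1.32% and 1.16% with SMC1A and at 1.03% and 0.78% without, against 0.656% of genome windows. Their within-decile difference was 0.71 and 0.48 percentage points, higher with SMC1A in 7 of 8 deciles of each replicate. All motifs were searched on both strands.

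The named sites give single cases of each class. The strongest shared site lay 4.72 kb from CHST8, which encodes a carbohydrate sulfotransferase, in intergenic sequence at chr19:34268815-34269467. Its percentiles were 99.99 and 100 for STAG2 and 100 and 100 for SMC1A, with fold enrichments of 75.1 and 50.6 for STAG2 and of 97.9 and 53.5 for SMC1A. The others were a site 4.52 kb from SFXN1, a mitochondrial serine transporter, a non-coding exon 4.75 kb from POFUT2, an O-fucosyltransferase, a promoter on chromosome 1 of a gene model with no symbol, and the promoter of NOTUM, which inactivates Wnt proteins. All 5 held CTCF in both replicates, at percentiles of at least 98.8.

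Strong STAG2 sites without SMC1A in either replicate were of middle to high rank, and 4 of the 5 strongest are given. An intron of PTPRD, a receptor tyrosine phosphatase, held STAG2 at percentiles of 79.5 and 86.4 (fold 30.9 and 21.5) and CTCF at 63.6 and 73.6. An intron of ALDH1A2, a retinoic acid synthesis enzyme, held STAG2 at 79.7 and 84.5 and CTCF at 44.5 and 64.2. An intergenic site on chromosome 2, 556.8 kb from RPIA, held STAG2 at 77.5 and 81.0, and one 34.1 kb from ADCYAP1R1, the receptor of the neuropeptide PACAP, held it at 74.5 and 77.9. Both also held CTCF in both replicates. All 4 sites given here held STAG1 in both replicates, at percentiles from 51.6 to 73.9.

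The strongest SMC1A sites without STAG2 in either replicate overlapped no STAG1 peak in replicate 1. In replicate 2, 3 of the 5 overlapped one, MCRS1 at a STAG1 percentile of 47.2, AIPL1 at 46.5 and GRIK3 at 4.36. An intron of GAS8, a component of motile cilia, held SMC1A at percentiles of 94.1 and 95.0 (fold 37.1 and 24.5) with no CTCF. A non-coding exon of MCRS1, a subunit of a histone acetyltransferase complex, held SMC1A at 72.8 and 84.3 with CTCF at 57.6 and 75.7. An intron of AIPL1, a photoreceptor chaperone, held SMC1A at 71.8 and 82.7 with CTCF at 59.9 and 72.3. An intron of GRIK3, a kainate receptor subunit, held it at 71.1 and 79.7 without CTCF. The repeated sequence 32.1 kb from NID1 held it at 75.0 and 71.8, with fold enrichments of 5.58 and 3.04 that were below the list medians of 6.50 and 3.69.

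Genes were ranked by their unpaired peaks. For STAG2 without SMC1A the leading genes were very long: RBMS3, an RNA-binding protein gene of 1436 kb, held 20 of 42 STAG2 peaks without SMC1A in replicate 1 and 19 of 65 in replicate 2. PDE4D, a cAMP phosphodiesterase gene of 1553 kb, held 20 of 55 and 18 of 82, MACROD2 17 of 42 and 26 of 66, and the dystrophin gene DMD 17 of 38 and 19 of 67. An unnamed gene model (ENSG00000283563) that overlaps RBMS3 was the fifth, with 18 of 41 and 17 of 63. For SMC1A without STAG2 the leading gene was RAI1, of 130.0 kb, with 29 of 54 and 61 of 89. The transcription factor gene RUNX1, of 1217 kb, held 28 of 59 and 79 of 169, and the cytoskeletal gene SEPTIN9, of 220.0 kb, held 28 of 57 and 47 of 82. The Polycomb cofactor gene JARID2, of 276.0 kb, held 27 of 54 and 54 of 100, and the zinc finger gene HIVEP3, of 529.6 kb, held 25 of 68 and 52 of 122. A longer gene has room for more peaks, and all 5 SMC1A genes were shorter than the 5 STAG2 genes, the shortest of which spans 1418 kb.

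At the promoters of 20090 protein-coding genes, 50.3% held both subunits in replicate 1 and 65.0% in replicate 2. STAG2 alone was at 3.70% and 2.23%, SMC1A alone at 9.0% and 5.74% and neither at 37.0% and 27.0%. In 2 short gene lists drawn up for this comparison, and not taken from the study, most promoters were shared: of 12 melanocyte lineage genes, 11 held both in replicate 1 and 12 in replicate 2, and of 8 melanoma state genes, 7 held both in each replicate. The remaining one, the AP-1 subunit gene JUN, had STAG2 alone at the promoter in replicate 1, at a percentile of 29.9, and neither in replicate 2. By overlap, however, 0 of the 2 STAG2 peaks within JUN lacked SMC1A in replicate 1. Among the melanocyte genes, the master regulator MITF held STAG2 at percentiles of 57.3 and 72.5 and SMC1A at 59.6 and 81.6, and SOX10, a neural crest factor, held STAG2 at 75.5 and 83.5 and SMC1A at 88.4 and 91.8.

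Of the 5 cohesin ring genes, RAD21, STAG1 and STAG2 held both subunits in replicate 1 and all 5 did in replicate 2. The STAG2 promoter itself held STAG2 at 99.6 and 99.7 and SMC1A at 92.5 and 97.7. Of 11 cohesin regulators, 7 held both in replicate 1 and 11 in replicate 2. In replicate 1 ESCO2, a cohesin acetyltransferase, had STAG2 alone, and CDCA5 (sororin) and the cohesin release factor WAPL had SMC1A alone. Of the 6 loci the study examined, IRF9, an interferon-response factor, held STAG2 at 72.3 and 82.8 and SMC1A at 74.4 and 83.5. IRF7 had SMC1A alone in replicate 1, and DUSP6, a MAP kinase phosphatase, had STAG2 alone in replicate 2. Alone describes the promoter and can differ from the overlap of peaks within the gene. By overlap, 0 of 1 STAG2 peaks in DUSP6 lacked SMC1A in replicate 2. Likewise 0 of 1 SMC1A peaks in CDCA5 lacked STAG2 in replicate 1.

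Genes for plasma proteins of the liver gave another picture, in a list of 12 drawn up because earlier results of these data had shown ALB. ALB, the albumin gene, held 10 STAG2 peaks in replicate 1 and 11 in replicate 2, none of which had SMC1A, and 10 of 10 and 10 of 11 had the summit in an exon, although exons cover 14.1% of the gene (chr4:74262831-74287199). Exonic bases made up 85.2% and 80.3% of the bases of these exonic peaks. Their percentiles ranged from 19.6 to 68.5 and from 38.9 to 77.9, and fold enrichment ran up to 15.9 and 14.7. In the same gene there were 0 SMC1A and 0 CTCF peaks in either replicate and 3 and 4 STAG1 peaks. In the STAG2-KD cells ALB held 0 and 1 STAG2 peaks.

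SERPINA1, the alpha-1-antitrypsin gene, held 3 and 5 STAG2 peaks, all in exons and all without SMC1A. HP, the haptoglobin gene, held 3 and 1, FGA 1 and 2, FGB 1 and 1 (the last 2 encode fibrinogen chains), all in exons and without SMC1A, and the STAG2-KD lists held 0 STAG2 peaks in SERPINA1, HP, FGA and FGB. Among 20090 protein-coding genes, SERPINA1 alone held at least 3 STAG2 peaks in each replicate that were all exonic and all without SMC1A. That rule was chosen after the values were seen. The 20090 include genes with fewer than 3 STAG2 peaks, such as FGB, which could not meet it, so the count does not measure rarity. Of the other 7 genes of the list, AHSG and APOA1 held only STAG2 peaks that had SMC1A, F2 held none, FGG held 0 and 1, and APOB, TF and TTR held STAG2 peaks with and without SMC1A. Over all STAG2 peaks without SMC1A, 10.7% and 7.19% had the summit in any exon, against 16.2% and 14.4% with SMC1A. For coding exons alone the shares were 2.38% and 1.75% without SMC1A, against 3.31% and 2.84% with it.

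After knockdown, the STAG2 lists of the same set kept shared sites more often than unpaired ones. A STAG2 peak of the STAG2-KD cells overlapped 79.0% and 86.2% of STAG2 peaks with SMC1A and 31.4% and 42.6% of those without. An SMC1A peak of the STAG2-KD cells overlapped 91.0% and 89.1% of SMC1A peaks with STAG2 and 50.7% and 43.8% of those without. Shared peaks were also stronger, and the part of strength in these differences was not tested.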

How the data were processed

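ChIP-seq peak lists of M14 cells were used as deposited, 12 of 16, and the STAG2-KD lists for STAG1 and CTCF (4) were not used here. Per the study's methods the authors mapped reads to hg19, removed low-quality and duplicate reads and called peaks with MACS2 against input, 1 list per library. The submitters' processing notes name Bowtie2 and MACS2 for replicate 1, and CASAVA 1.4, BWA, SAMtools, Picard, MACS2 and deepTools for replicate 2, so the aligner of replicate 2 is not settled. The deposited columns hold a whole-number score, the fold enrichment at the summit (a ratio), and −log10 p-values and −log10 q-values. The score was not analysed.

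Positions were compared with GRCh37 and GENCODE v44lift37, the same build. Overlap was at least 1 bp, and 0 peaks overlapped within a list. Depth was recovered from steps in the fold and p-value columns, for an assumed genome of 2.7 Gb and fragments as long as the narrowest peak. Peaks outside chromosomes 1 to 22 and X were left out. Sites named were the 5 with the highest sum of percentiles per class, and genes the 5 with the most unpaired peaks in the replicate with fewer. Of the sites so chosen, 1 is not reported here. Members and lists were chosen with earlier results of these data known. Alternatives were stricter and common thresholds, equal peak numbers, 50% overlap, all rows, joined partner lists, other ranks, promoter and CTCF definitions, and leaving out a replicate. Analyses used Python 3.11.15, numpy 2.4.6, pandas 2.3.3 and matplotlib 3.10.9, and functions were tested on simulated data.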

Additional observations from a re-analysis of the deposited data

Results flagged for a closer look

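Some peaks of the compared lists lay outside chromosomes 1 to 22 and X, in sequence that no comparison used. They numbered 2861 in STAG2 and 2564 in SMC1A of replicate 1, and 247 in STAG2 and 216 in SMC1A of replicate 2. These are 3.49% and 3.02% of the deposited peaks in replicate 1 and 0.207% and 0.145% in replicate 2, so the share differed between the replicates more than between the antibodies. Peaks in these places were drawn into no comparison, and including them left every result on the same side of 0.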

How the results depend on the processing

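The shares, strengths, promoter and CTCF differences kept their direction under the alternatives tried, apart from those named here. With a −log10 q-value of at least 5, the log2 ratio of STAG2 to SMC1A peak numbers turned to 0.17 (exact permutation p = 0.667), 75.4% of STAG2 peaks had SMC1A, 15.2% of SMC1A peaks lacked STAG2, the strength difference of STAG2 was 40.8 percentiles, its promoter difference 9.90 points and the CTCF difference of SMC1A 45.3 points. With equal numbers of peaks, 20.9% of SMC1A peaks lacked STAG2, and the strength and CTCF differences of SMC1A were 41.3 and 49.4. With at least 50% overlap, the strength differences were 40.7 (STAG2) and 43.5 (SMC1A), the promoter difference of STAG2 was 8.94 and the CTCF difference of SMC1A 55.9. With the partner lists of both replicates joined, the shares were 87.3% and 20.7%, the strength differences 36.7 and 39.4, the promoter difference of STAG2 13.7 and the CTCF difference of SMC1A 50.9. Ranked by fold, the strength differences were 37.2 and 40.8, and with the strongest 50% of CTCF peaks the CTCF difference of STAG2 was 49.7. Within strength deciles, chosen once the values were known, the CTCF difference of STAG2 turned to −1.14, that of SMC1A was 23.9 and the promoter difference of STAG2 was 20.2. The causes were not tested. The deciles group peaks by rank within their own list, and strength can still differ within a decile.

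Leaving out a replicate gave −0.32 to −0.06 for the log2 ratio, 76.5% to 81.0% and 25.0% to 33.0% for the shares, 37.8 to 40.0 and 41.8 to 42.4 for strength, 10.6 to 12.8 (STAG2) and −13.2 to 3.11 (SMC1A) for promoters, and 23.3 to 30.0 and 51.4 to 52.3 for CTCF. The SMC1A promoter difference was 3.11 without replicate 1. Replicate 2 was, however, negative with the stricter threshold (−6.77), equal numbers (−5.24), 2.5 kb promoters (−0.97) and within deciles (−0.57), and the mean of both replicates ran from −13.5 to −1.18. With the replicate as a block, the log2 ratio was −0.19 and an exact sign-flip test gave p = 0.5, the smallest it allows. With 2 lists per antibody no test here could pass 0.05, and depth, threshold and fragment size differ between the replicates and cannot be told apart.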
